A study of Mus musculus with 12 samples.

Results

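The growth hormone and IGF axis was described in mouse hepatocytes through 9 genes, Ghr, Stat5b, Cish, Socs2, Igf1, Igfals, Igfbp2, Igfbp3 and Igfbp4. They were taken by gene name from a table of 52636 genes, and all 9 were among the 16563 genes with enough reads to be tested. Growth hormone binds its receptor, the product of Ghr, on hepatocytes, and the kinase JAK2 bound to the receptor then phosphorylates STAT5B, a transcription factor that moves to the nucleus. Textbook targets of STAT5B in liver are Igf1, which encodes the circulating growth factor IGF1, Igfals, which encodes the acid-labile subunit that keeps IGF1 in the circulation, and Socs2 and Cish, whose products dampen the signal of the receptor. Growth hormone is secreted in pulses, and STAT5B activity in rodent liver is known to follow them. IGF-binding proteins hold IGF1 in the blood or keep it from its receptor, and in liver IGFBP3 is known to be made mainly by cells other than hepatocytes.

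The study compared wild-type (WT) mice with Ptprk knockout (KO) mice, and Ptprk encodes a receptor-type tyrosine phosphatase. Hepatocytes from fatty livers were parted into low-fat and high-fat cells, the 2 fat fractions, with a density gradient and centrifugation steps intended to leave out dead hepatocytes and other liver cells. Each of 6 mice, 3 WT and 3 KO, gave 1 low-fat and 1 high-fat library of polyA RNA, and the labels give both libraries of a mouse the same mouse name. The mice are called here WT1, WT5, WT6, KO2, KO4 and KO6, as in the labels. The form of the knockout allele, the strain, sex, age and diet of the mice and the time of collection are not given in the sources used here. Replicates 1, 2 and 3 are WT1, WT5 and WT6 for WT and KO2, KO4 and KO6 for KO. Same-numbered replicates of the genotypes are different mice.

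Values are reads per 20 M (M, mega), the total to which the authors scaled each library. The estimated depth was 15.1 to 25 M reads per library, so that 3 reads correspond to a value between 2.40 and 3.98. Ptprk lay between 2174 and 2883 in the 6 WT libraries and between 1117 and 1364 in the 6 KO libraries, so the KO libraries were lower without overlap but were not free of its reads. All 12 hepatocyte markers were detected, with a summed level of 669342 to 769051, and the summed level of 11 sinusoidal endothelial markers was 1440 to 3871 in the low-fat and 6257 to 19025 in the high-fat libraries. Of the markers of Kupffer cells, the resident macrophages of the liver, and of stellate cells, its fat-storing pericytes, none was at 0 in all libraries.

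STAT5 dimers bind a palindromic motif spelled TTCNNNGAA, which reads the same on both strands. RefSeq promoters of 300 bases, from 250 bases before to 50 bases after an annotated start site, were searched for it, and 8 of the 9 genes had an entry. Socs2 had none. The motif stood in the promoter of Cish, with 2 matches, and in 2 of the 3 promoters of Igfals, with 1 match each, and these are the sequences shown because Cish is the gene that varied most between mice and Igfals is compared between fractions below. No match was found in the windows of Ghr, Stat5b, Igf1, Igfbp2, Igfbp3 and Igfbp4, which says only that these letters are not in those windows. Of all 32851 promoters, 8.30% held at least 1 match and 0.457% at least 2. The sequences are given 5′ to 3′ on the plus strand of GRCm38.p6, with the matches in capitals. They are a description of the reference sequence, not of binding.
Cish, chr9:107296409-107296708: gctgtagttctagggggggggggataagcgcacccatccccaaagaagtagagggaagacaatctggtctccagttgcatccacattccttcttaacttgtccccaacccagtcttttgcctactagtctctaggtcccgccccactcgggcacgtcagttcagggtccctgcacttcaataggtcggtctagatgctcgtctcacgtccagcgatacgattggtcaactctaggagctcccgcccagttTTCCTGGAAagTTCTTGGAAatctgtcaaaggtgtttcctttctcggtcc
Igfals, promoter 1, chr17:24877594-24877893: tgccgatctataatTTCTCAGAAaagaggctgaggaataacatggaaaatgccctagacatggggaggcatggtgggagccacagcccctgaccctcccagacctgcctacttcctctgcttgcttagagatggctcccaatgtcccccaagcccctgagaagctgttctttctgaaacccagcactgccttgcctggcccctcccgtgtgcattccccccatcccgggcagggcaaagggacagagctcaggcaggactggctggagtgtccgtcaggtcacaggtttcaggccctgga
Igfals, promoter 2, chr17:24877981-24878280: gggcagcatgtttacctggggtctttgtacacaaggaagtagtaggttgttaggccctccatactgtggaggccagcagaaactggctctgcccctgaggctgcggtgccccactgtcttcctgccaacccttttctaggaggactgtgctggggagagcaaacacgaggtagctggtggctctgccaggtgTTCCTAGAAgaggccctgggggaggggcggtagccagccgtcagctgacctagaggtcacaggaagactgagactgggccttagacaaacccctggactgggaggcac

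Counted from the first transcribed base as position 1, the matches of Cish begin at 1 (TTCCTGGAA) and 12 (TTCTTGGAA). Those of Igfals begin at -236 (TTCTCAGAA) in the upstream promoter and at -58 (TTCCTAGAA) in the next.

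Levels were compared between genes only after division by the length of the exons of each gene. Igfbp4, whose product binds IGF1 and keeps it from its receptor, had the highest mean level, 6398 reads per 20 M per kilobase over the 12 libraries, followed by Igfbp2 with 4322. The next were Ghr with 1620, Igf1 with 1255, Igfals with 809 and Stat5b with 437. The lowest were Cish with 72.7, Socs2 with 28.4 and Igfbp3 with 23.3. The ranges over libraries did not overlap between Igfbp4 and Igfbp2, between Igfbp2 and Ghr, or between Stat5b and Cish. Ghr and Igf1, Igf1 and Igfals, and Igfals and Stat5b overlapped, as did Cish, Socs2 and Igfbp3 among themselves. The ranges therefore do not separate those pairs or these 3 genes, and their order within each library was not compared.

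**Figure D1:**
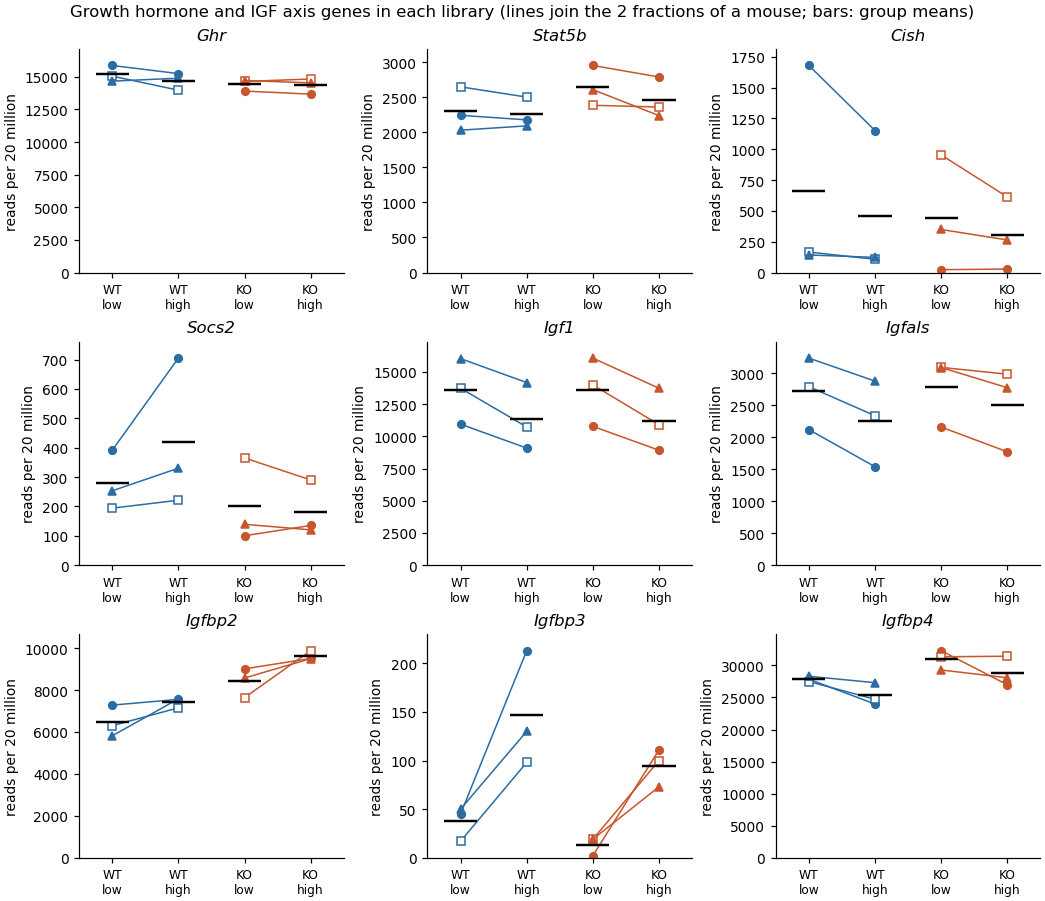
Each panel plots the level of a gene in reads per 20 M (vertical axis, from 0) in the 4 groups (WT in blue, KO in orange; low, low-fat; high, high-fat). Circles are mice WT1 and KO2, open squares WT5 and KO4, and triangles WT6 and KO6; lines join the 2 libraries of a mouse and black bars are group means. Igfbp3 is higher in the high-fat library of every mouse, Igf1 and Igfals are lower in it, Igfbp2 is higher in KO, and Cish differs mostly between mice.

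Fat fraction was compared within mice and between groups. A gene was called when its limma p-value, adjusted over the 16563 genes tested by the Benjamini-Hochberg method, was under 0.05. With the genotypes averaged, limma called 1 of the 9 genes, Igfbp3, which was higher in high-fat libraries, where 5.77% of all genes tested were called and 5.05% were called higher. With the mouse as a block, which compares the 2 libraries of each mouse, it called 4 of the 9, Igfbp3 higher and Igf1, Igfals and Cish lower. Of all genes 11% were called in that fit, 6.76% higher and 4.23% lower. When the pairing was instead fitted as a correlation between the libraries of a mouse, estimated across genes, limma called 12% of all genes and 1 of the 9, Igfbp3. The adjusted p of limma in that fit was 0.087 for Igf1, 0.21 for Igfals and 0.76 for Cish, so these 3 calls were made only with the block. The median log2 fold change of the 9 genes was -0.12 and that of all genes tested -0.02. All log2 fold changes are of value + 2 after scaling between libraries, and for a gene of low level this makes the fold smaller.

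Igfbp3 (ENSMUSG00000020427) encodes the main carrier of IGF1 in blood and spans 7206086 to 7213923 of chromosome 11 (minus strand, GRCm38, GENCODE M21). Its value went from 45 in the low-fat to 213 in the high-fat cells of WT1, from 17 to 98 in WT5 and from 50 to 130 in WT6. In the KO mice it went from 2 to 111 in KO2, from 19 to 100 in KO4 and from 19 to 73 in KO6. Each high-fat library was above each low-fat library, which was so for 5.4% of all genes tested in either direction. Igfbp3 rose 5.39-fold, a log2 difference of 2.43 with an SE of 0.43 and a limma adjusted p of 0.0081, and was higher in high-fat cells of 6 of 6 mice (two-sided exact permutation test by sign changes, p = 0.031, the smallest that 6 mice allow). A rise in 6 of 6 mice was found for 9.96% of all genes. With the mouse as a block the limma adjusted p was 0.0069.

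The value of 2 in the low-fat library of KO2 corresponds to 2 reads and lies under the level of 3 reads. The ratio of its fractions was 56.8, with a 95% exact binomial interval of counting error from 15.4 to 475. Without the mouse KO2, the log2 fold change with the mouse as a block was 1.99, the lowest of the 6 fits that each left out a mouse. Igfbp3 was called in all 6 of these fits, with limma adjusted p-values from 0.0014 to 0.043.

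Within WT the log2 fold change of Igfbp3 was 1.92 (SE 0.61, limma adjusted p = 0.23, and 0.11 with the block) and within KO 2.94 (SE 0.61, limma adjusted p = 0.053, and 0.037 with the block). In KO, 0.839% of all genes were called without the block and 1.7% with it, and in WT 0 genes in either fit (1847 and 3209 at an unadjusted p under 0.05). The interaction, which tests whether the fraction difference depends on genotype, was 1.01 (SE 0.86, limma adjusted p = 1.0), and 0.22 without the low-fat library of KO2.

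Markers of non-parenchymal cells moved with Igfbp3. All 11 sinusoidal endothelial and all 11 stellate cell markers were called higher in the high-fat libraries, and 9 of 11 Kupffer cell markers. The summed endothelial markers lay between 1440 and 3871 in the low-fat and between 6257 and 19025 in the high-fat libraries. The summed stellate markers lay between 158 and 746 and between 2278 and 3948, and the Kupffer markers between 514 and 1447 and between 2290 and 12539, in the same order, and each sum was higher in high-fat cells of 6 of 6 mice. In bulk libraries fewer cells of a type and less RNA per cell cannot be told apart, and the part of these cells in the Igfbp3 difference was not tested. The 2 genes whose levels were most like that of Igfbp3 across the 12 libraries, among 10517 with a mean of at least 100, were Ltbp4 (Pearson's r of 0.974) and Cavin2 (0.973). These correlations are descriptions, as libraries share fractions, mice and depth.

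**Figure D2:**
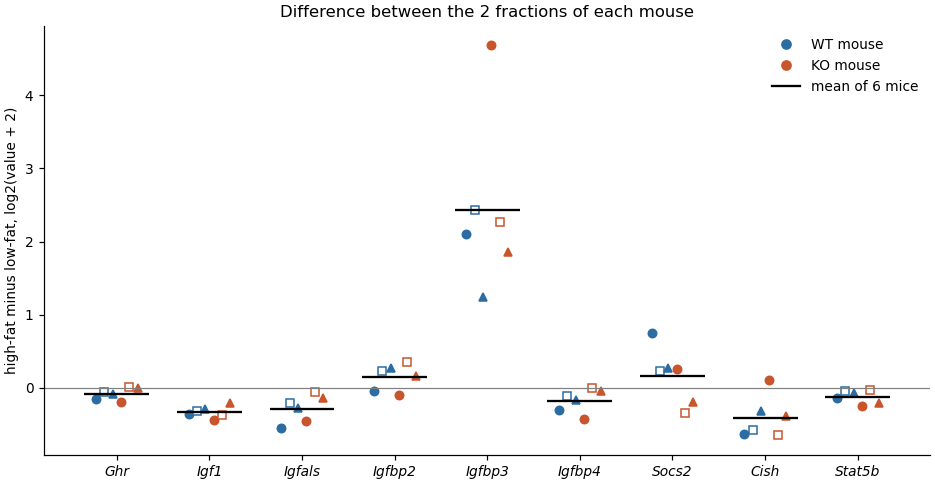
The log2 difference between the high-fat and the low-fat library of each mouse (vertical axis) is plotted for the 9 genes (horizontal axis), with WT mice in blue, KO mice in orange, the marker shapes of the mice as in the plot of levels, and a black bar at the mean of the 6 mice. All 6 Igfbp3 points are above 0 with a mean of 2.43, all 6 Igf1 points are below 0 with a mean of -0.33, and KO2 is far above the other mice for Igfbp3 at 4.68.

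Igf1 (ENSMUSG00000020053) spans 87858265 to 87937042 of chromosome 10 (plus strand). Its value went from 10948 in the low-fat to 9090 in the high-fat cells of WT1, from 13737 to 10732 in WT5 and from 16040 to 14179 in WT6. In the KO mice it went from 10777 to 8924 in KO2, from 13997 to 10907 in KO4 and from 16080 to 13735 in KO6. The groups of libraries overlapped, and the difference showed within each mouse. The mean log2 difference was -0.33 ± 0.080 (SD, n = 6 mice), lower in 6 of 6 mice (two-sided exact permutation test by sign changes, p = 0.031, the smallest possible). A lower level in 6 of 6 mice was found for 11.6% of all genes tested. The sign-change test takes the 6 mice as independent, which mice of the same replicate number may not be for Igf1.

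With the mouse as a block the SE was 0.055 and the limma adjusted p was 0.010. Without the block Igf1 was not called (limma adjusted p = 0.34), and without the mouse WT1 the blocked fit gave 0.078. In WT and KO taken alone, the blocked differences were -0.32 and -0.34 (limma adjusted p = 0.095 and 0.072), and the interaction was -0.02 (95% interval -0.27 to 0.23 with the block). Igf1 overlaps Igf1os, an antisense gene on the opposite strand, and because the strandedness of the counts is not given, reads of the pair cannot be told apart.

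Igfals (ENSMUSG00000046070) spans 24865997 to 24882010 of chromosome 17 (plus strand). It went from 2118 to 1538 in WT1, from 2789 to 2335 in WT5 and from 3236 to 2876 in WT6 from low-fat to high-fat cells. In the KO mice it went from 2158 to 1771 in KO2, from 3091 to 2984 in KO4 and from 3088 to 2773 in KO6. Igfals was thus lower in high-fat cells of 6 of 6 mice, least in KO4 and most in WT1. The mean log2 difference was -0.28 ± 0.19 (SD, n = 6 mice; two-sided exact permutation test by sign changes, p = 0.031). Igfals was called with the block (SE 0.068, limma adjusted p = 0.036) and not without it (limma adjusted p = 0.50). Among the 6 blocked fits that each left out a mouse it was called in 2, those without KO2 and without KO4, and the limma adjusted p reached 0.18.

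Cish (ENSMUSG00000032578), a feedback inhibitor of the receptor, spans 107296026 to 107302784 of chromosome 9 (plus strand). Its value went from 1680 in the low-fat to 1152 in the high-fat library of WT1, from 166 to 107 in WT5 and from 142 to 123 in WT6. In the KO mice it went from 954 to 613 in KO4 and from 349 to 264 in KO6, and from 23 to 28 in KO2, the only mouse of the 6 in which it was higher. The mean log2 difference was -0.41 ± 0.29 (SD, n = 6 mice), and a two-sided exact permutation test by sign changes gave p = 0.062. With the block the limma adjusted p was 0.043, and 0.12 when the deposited scaling was used alone. Cish was called in 1 of the 6 blocked fits that each left out a mouse, the one without KO2, and the limma adjusted p reached 0.21.

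Of the other 5 genes none was called for the fraction difference in either fit. Socs2, the other feedback inhibitor, had a mean log2 difference of 0.16 (SE 0.11 and limma adjusted p = 0.35 with the block), higher in high-fat cells of 4 mice and lower in KO4 and KO6. Stat5b had -0.12 (limma adjusted p = 0.13 with the block), Ghr -0.08 (0.38) and Igfbp4 -0.18 (0.20). Igfbp2 had 0.15 (limma adjusted p = 0.23 with the block). Stat5b and Igfbp4 were lower in 6 of 6 mice under the scaling used here and in 5 of 6 with the deposited values, while Igfbp2 was higher in 4 of 6 mice under this scaling and in 6 of 6 with the deposited values. The interaction with genotype was called for 0 of the 9 genes and for 0 genes in all, with values from -0.51 for Socs2 to 1.01 for Igfbp3. An unadjusted p under 0.05 was found for 24 genes without and 66 with the block.

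Genes of hepatocyte position along the liver lobule also differed between the fractions, and they are given here beside the lower levels of Igf1, Igfals and Cish. The summed level of 10 periportal genes lay between 328510 and 369247 in the low-fat and between 264906 and 304671 in the high-fat libraries, lower in high-fat cells of 6 of 6 mice. That of 10 pericentral genes lay between 61538 and 113945 and between 111839 and 152715, higher in 6 of 6 mice. limma called 5 of 10 periportal genes lower and 5 of 10 pericentral genes higher, and with the block 7 lower and 8 higher. The summed hepatocyte markers were higher in high-fat cells of 2 of 6 mice. The part of lobule position or of other cells in these levels was not tested.

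**Figure D3:**
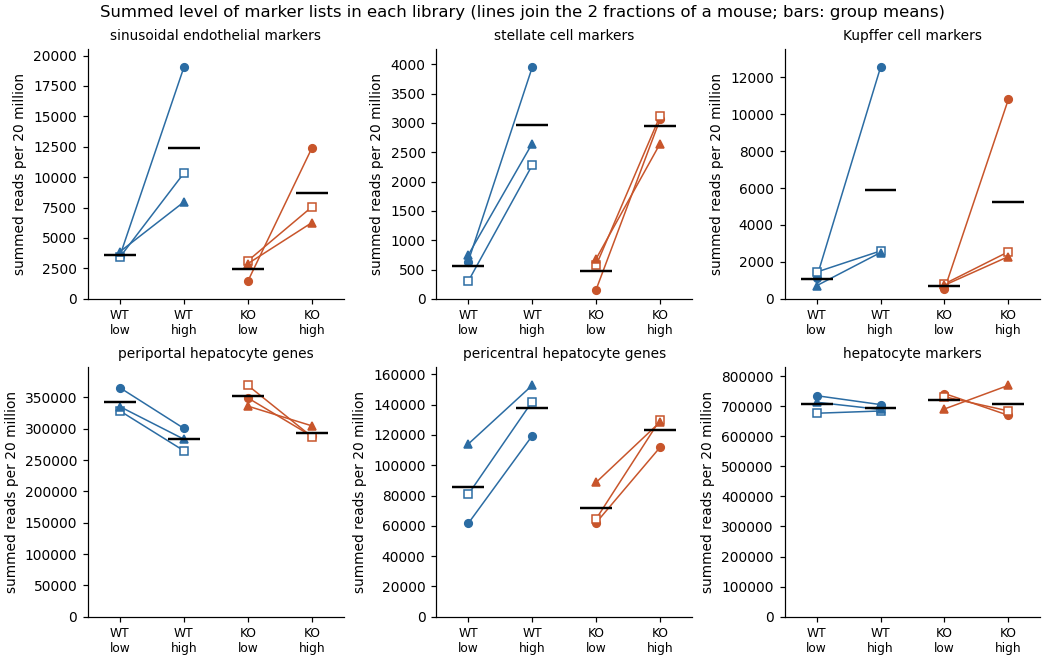
Summed reads per 20 M of 6 marker lists (vertical axis, from 0) in the 4 groups, with colours, marker shapes, lines and bars as in the plot of levels. The endothelial, stellate and Kupffer sums and the pericentral sum are higher and the periportal sum is lower in high-fat cells of 6 of 6 mice.

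Genotype was compared in each fraction and with the 2 libraries of a mouse averaged. limma called 0 of the 9 genes in each of the 3 comparisons, with or without the replicate block. Of all genes tested 0.00604% were called in each fraction and in the average without the block, which was Ptprk alone, and 0 in the average with the block (659 genes at an unadjusted p under 0.05). The median log2 fold change of the 9 genes was 0.01 in low-fat and -0.01 in high-fat libraries, against 0.00 and -0.01 for all genes tested. An unadjusted p under 0.05 was found for 2 of the 9 genes in low-fat libraries, Igfbp2 and Igfbp3, where 1.72% of all genes had one, for 1 in high-fat libraries, Igfbp2, where 2.02% had one, and for Igfbp2 and Igfbp3 over the 6 mice, where 2.19% had one.

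Igfbp2 (ENSMUSG00000039323) encodes an IGF-binding protein secreted by the liver and spans 72824503 to 72852474 of chromosome 1 (plus strand). In low-fat libraries its value was 7281 in WT1, 6299 in WT5 and 5817 in WT6, and 9011 in KO2, 7637 in KO4 and 8575 in KO6. In high-fat libraries it was 7554, 7151 and 7578 in the same WT mice, and 9506, 9877 and 9498 in the KO mice. The genotypes did not overlap in either fraction, which in the same direction in both was so for 0.894% of all genes tested, and a two-sided exact permutation test gave p = 0.1 in each fraction, the smallest that 3 against 3 libraries allow. The log2 fold change was 0.39 (SE 0.11) in low-fat and 0.38 (SE 0.11) in high-fat libraries, and 0.38 (SE 0.083, limma unadjusted p = 0.0022) over the 6 mice, a 1.30-fold higher level in KO. The limma adjusted p was 1.0 in each of the 3 comparisons, and at least 0.74 with the replicate number as a block, so Igfbp2 did not pass the test over all genes. The 2 fractions of a mouse are not independent samples.

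Igfbp3 was lower in KO in low-fat libraries, with a log2 fold change of -1.58 (SE 0.61, limma unadjusted p = 0.024, adjusted p = 1.0), and with -0.57 (SE 0.61, limma adjusted p = 1.0) in high-fat libraries, and the genotypes overlapped in both. Without the low-fat library of KO2, which holds 2 reads of Igfbp3, the low-fat value was -0.79, the nearest to 0 of the 6 fits that each left out a library. Without the high-fat library of WT1 the high-fat value was -0.28. Over the 6 mice it was -1.07 (SE 0.41, limma unadjusted p = 0.032, adjusted p = 1.0), and -0.72 without KO2. The 11 endothelial markers were lower in KO as well, 11 of 11 with a median log2 fold change of -0.59 over the 6 mice. limma called none of them, and 9 of 11 had an unadjusted p under 0.05, where 2.19% of all genes had one. The 11 Kupffer cell markers were also lower in KO, with a median of -0.42, none called and 0 at an unadjusted p under 0.05. The part of these cells in the Igfbp3 values was not tested.

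For the other 7 genes the KO and WT libraries overlapped in both fractions after scaling between libraries. In the deposited values Igfbp4 did not overlap in low-fat libraries, with 27478 to 28305 in WT and 29286 to 32293 in KO. The share of all genes without overlap there was not counted, so this is not read as a genotype difference. Over the 6 mice the log2 fold change of Ghr was -0.05 (SE 0.089), of Igf1 0.00 (SE 0.21), of Igfals 0.11 (SE 0.24), of Igfbp4 0.17 (SE 0.10) and of Stat5b 0.17 (SE 0.11), each with a limma adjusted p of 1.0. For Ghr the 95% interval was -0.26 to 0.16, and for Igf1 it was -0.50 to 0.50. Those of Socs2 and Cish were wider, with -0.88 (95% interval -1.94 to 0.18) and -0.65 (-3.8 to 2.5). With the replicate number as a block the interval of Igf1 was -0.17 to 0.16 and that of Igfals -0.097 to 0.31. The block made those of Socs2 and Cish wider, with -2.16 to 0.40 and -4.54 to 3.23.

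**Figure D4:**
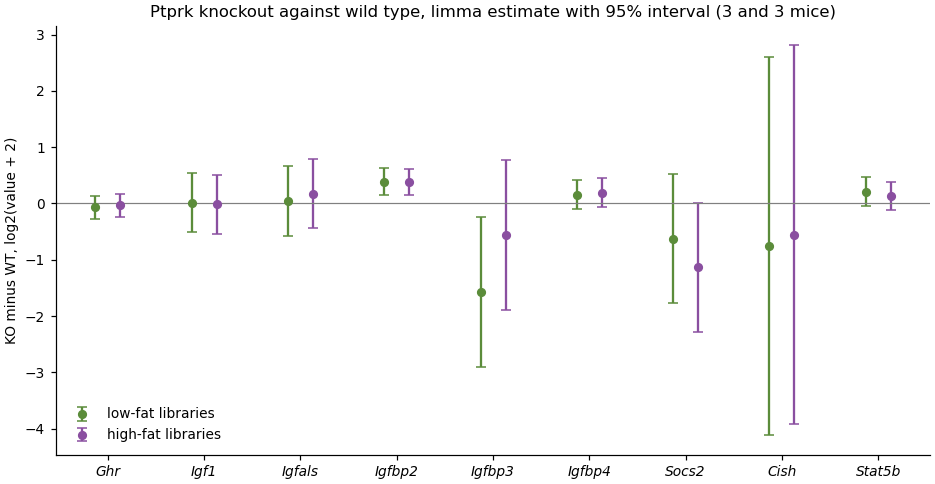
The log2 fold change of KO against WT (vertical axis) with its 95% interval from limma is plotted for the 9 genes (horizontal axis) in low-fat libraries (green) and high-fat libraries (purple), 3 against 3 mice each. The intervals take their spread from all 12 libraries, with the 2 libraries of a mouse counted as separate. The intervals of Igfbp2 lie above 0 in both fractions before adjustment over all genes, and those of Cish span from -4.12 to 2.81.

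For Cish, Socs2, Igf1, Igfals and Stat5b the SD between mice of a genotype exceeded the SD of the difference between the 2 libraries of a mouse. The SD between mice of a genotype, on the log2 scale and over the mean of the 2 libraries of a mouse, was 2.23 for Cish, rank 5 from the top among 16563 genes, against a median of 0.18 for all genes tested. The SD of the difference between the 2 libraries of a mouse, taken over mice of a genotype, was only 0.30 for Cish. That difference, -0.41 on average, thus varied less from mouse to mouse than the mouse means, which lay far apart within a genotype. WT1 was high in both libraries and WT5 and WT6 low, and KO4 was high, KO6 between and KO2 lowest, with a 73.0-fold span from 23 to 1680. WT values ran from 107 to 1680 and KO values from 23 to 954, so the genotypes overlapped between 107 and 954, with only KO2 below and only WT1 above.

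Socs2 (ENSMUSG00000020027, chromosome 10, 95385362 to 95417180, minus strand) had an SD between mice of 0.74, above 95.7% of all genes tested. Its values were 391 and 705 in low-fat and high-fat cells of WT1, 194 and 221 in WT5 and 253 and 330 in WT6. They were 100 and 135 in KO2, 365 and 290 in KO4 and 139 and 120 in KO6. WT1 and KO4, the mice with the highest Cish, were also those with the highest mean Socs2, and KO2 was lowest for both genes. Over the 6 mice Pearson's r of Cish and Socs2 was 0.77 (exact permutation p = 0.068, adjusted over the 3 relations computed 0.10) and Spearman's rho 0.83 (exact permutation p = 0.058). Without KO2 and WT1, the mice farthest from the median of Cish, r was 0.17, so the relation rests on those mice.

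Igf1 and Igfals, both secreted products of the axis, were both lowest in the same mice. The SD between mice was 0.33 for Igf1 and 0.39 for Igfals, and that of the difference within a mouse 0.088 and 0.19. Igf1 was lowest in WT1 and KO2, with mouse means of 10019 and 9850.5, and highest in WT6 and KO6, with 15109.5 and 14907.5. Igfals was lowest in WT1 and KO2 too, with 1828 and 1964.5. WT5 and KO4 lay between for Igf1, with 12234.5 and 12452. WT and KO mice of the same replicate number thus had nearly the same Igf1 value, although they are different mice. The 6 mice may therefore not be independent for this gene. Pearson's r of Igf1 and Igfals over the mice was 0.91 and Spearman's rho 0.94, and r was 0.95 without WT6 and KO6. For Cish and Igf1 r was 0.05 and rho 0.20, and r was -0.25 without KO2 and WT1. Both relations are given as descriptions with no p, since a permutation would take the 6 mice as independent for Igf1. The exact tests of the fraction difference and of Cish with Socs2 take the mice as independent too.

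The upstream genes and the abundant binding proteins varied little between mice. The SD between mice was 0.068 for Ghr (ENSMUSG00000055737, chromosome 15, 3317760 to 3583492, minus strand), whose values lay between 13668 and 15864 over the 12 libraries. It was 0.071 for Igfbp2 and 0.073 for Igfbp4 (ENSMUSG00000017493, chromosome 11, 99041244 to 99054392, plus strand), which lay between 23967 and 32293. These SDs stood at the percentiles 6.83, 7.78 and 8.29 of all genes tested, in the same order. Stat5b (ENSMUSG00000020919, chromosome 11, 100780731 to 100850724, minus strand) had an SD of 0.14, at the percentile 36.2, and lay between 2031 and 2954.

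**Figure D5:**
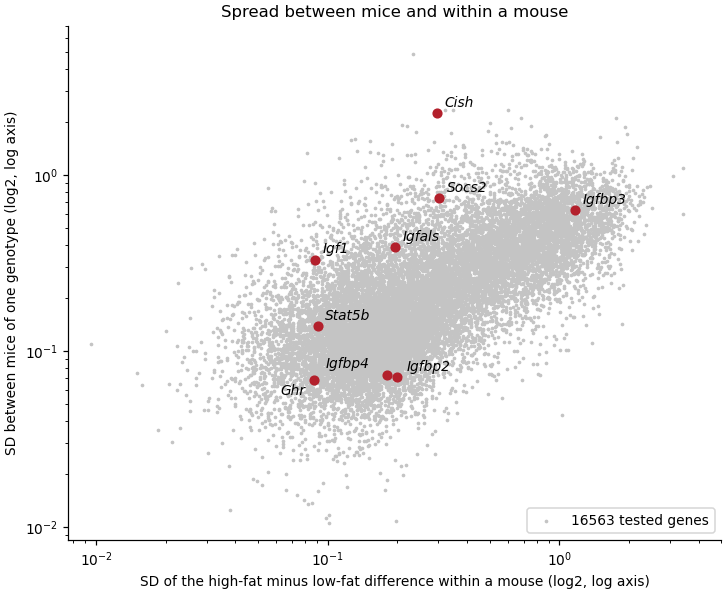
Each grey point is 1 of 16563 tested genes, with the SD of its high-fat minus low-fat difference within a mouse (horizontal log axis, log2 units) and its SD between mice of a genotype (vertical log axis, log2 units); the 9 genes are in red. Cish stands near the top at 2.23 with a within-mouse SD of 0.30, Igfbp3 is far to the right, and Ghr, Igfbp2 and Igfbp4 lie low.

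Likeness across the 12 libraries was described with Pearson's r of the log2 level, among 10516 genes with a mean of at least 100. Cish was most like Gm17041 (r of 0.998), which overlaps it on the opposite strand and whose reads cannot be told apart from those of Cish, and then Irak4 (0.944). Igfals was most like C3, a complement component (0.973), and Tm4sf4 (0.972), and Igf1 most like Cyp2d22 (0.948) and Urad (0.946). Igfbp4 was most like Lgr4 (0.958) and Endog (0.957), Stat5b most like AI661453 (0.957) and 2900026A02Rik (0.910), and Ghr most like Eif4a3 (0.948) and Cpb2 (0.938). Igfbp2 was most like Pdxk (0.884) and Mgll (0.858), and Socs2 most like Slc25a30 (0.873) and Serpina4-ps1 (0.871).

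Other genes of the pathway were taken from lists. Of 14 further genes of growth hormone receptor signalling, all tested, limma called 0 between fractions without the block (3 at an unadjusted p under 0.05), and with it 2 were lower in high-fat libraries, Stat3 with a log2 fold change of -0.28 and Socs7 with -0.20, both named after their values were seen. Of all genes tested 18.3% had an unadjusted p under 0.05 without the block, and 11% were called with it, 4.23% lower. Of 12 further IGF ligands, receptors, binding proteins and proteases 6 were tested, and 2 of them rose in high-fat libraries in both fits. Of all genes tested 5.05% were called higher without the block and 6.76% with it. Igfbp7, a secreted binding protein of low IGF affinity, rose by 2.02 (SE 0.22, limma adjusted p = 0.0026), from a range of 85 to 273 in low-fat to 491 to 1255 in high-fat libraries. Igf1r, the receptor of IGF1, rose by 1.5 (SE 0.34, limma adjusted p = 0.026), from 7 to 45 in low-fat to 54 to 112 in high-fat libraries. Both were higher in 6 of 6 mice, and the part in this of the endothelial and stellate markers, which moved with them, was not tested.

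Growth hormone also sets the sex bias of many liver genes. Of 16 male-biased targets, all tested, limma called 0 between fractions without the block (1 at an unadjusted p under 0.05), and with it 3 rose and 2 fell, where 6.76% of all genes were called higher and 4.23% lower. Hsd3b5, a steroid dehydrogenase, had a log2 fold change of 0.53 (limma adjusted p = 0.0085 with the block), Elovl3, a fatty acid elongase, 0.34 (0.040) and Serpina1e, a protease inhibitor, -0.41 (0.027). The other two, named after their values were seen, were the transporter Slco1a1 with 0.28 and the complement gene C8b with -0.30. Of 18 female-biased targets 11 were tested, and the level summed over the 18 was low, between 427 and 3731 per library. Without the block 3 rose, where 5.05% of all genes were called higher. With it 4 rose and 1 fell, where 6.76% of all genes were called higher and 4.23% lower. The 4 were Cyp3a16 with a log2 fold change of 1.7, Cyp3a44 with 1.47, Cyp3a41a with 1.34 and Cyp2a4 with 1.29, the last called only with the block, and the 1 that fell was Cyp17a1 with -0.64. The Cyp genes of these families have near-identical copies between which reads may be split, so their values are uncertain. Between KO and WT limma called 0 genes of these 4 lists in any of the 3 comparisons, and over the 6 mice 1 gene, Igfbp7, had an unadjusted p under 0.05, with a log2 fold change of -0.56 (SE 0.19). Of the 16 male-biased targets 14 were lower in KO over the 6 mice, with a median log2 fold change of -0.21, and none of these differences passed the test. The median of all genes tested was -0.01. The summed level of these targets did not move 1 way in the KO mice. It was 232048 and 210953 in low-fat and high-fat cells of KO2, above all WT libraries (158282 to 201622). In KO4 it was 123835 and 126457, and in KO6 146333 and 162116.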

How the data were processed

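RNA was sequenced in 12 libraries from 6 mice, in 4 groups of 3. Per the submitters' processing notes the genome build was mm9, and the aligner, read counter and strandedness are not given in the sources used here. The deposited values are a score: the authors scaled gene read counts to 20 M per library and rounded them up, as read from the values. Depth, 15.1 to 25 M (mega) reads, was estimated from gaps in the values. Intervals and floors cover counting error only.

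The tests took the 16563 genes that reached 10 in 3 or more libraries. Values were scaled between libraries by a trimmed mean of M values, put on a log2(value + 2) scale and fitted with limma 3.58.1 in R 4.3.3, with 4 group means, moderated variances and an intensity trend. The average over fractions was fitted on the means of the 6 mice. Adjusted p-values (Benjamini-Hochberg, two-sided tests) cover all genes tested. Exact tests and correlations used scipy 1.17.1 in Python 3.11.15. Alternatives changed the scaling, the pseudocount, the filter, the libraries fitted and the treatment of mice.

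The 2 libraries of a mouse were paired by the mouse name in the labels. Their deviations from the group means had an average correlation of 0.52 (WT) and 0.17 (KO), and those of other pairs -0.26 and -0.08. Same-numbered WT and KO replicates are different mice, and whether a number marks a shared preparation is not given in the sources used here. Their correlation was over 0.1 in 3 of 3 low-fat pairs (0.25 to 0.40, other pairs -0.16) and in 2 of 3 high-fat pairs (average 0.23, other pairs -0.11), and the replicate number was also fitted as a block between genotypes. No count model was run, as these are not raw counts. On simulated data with 200 genes changed by 1 log2 unit among 16274 tested, the averaged fraction fit recovered 85% of them, and 81.5% with the block. Recovery was lower for KO against WT, with 63.5% in low-fat libraries (16267 genes; 62.5% with the block), 68.5% in high-fat libraries (16251; 64%) and 69.5% over mice (16280; 47%). It was lowest for the interaction, with 38% (16289 genes) and 14% with the block. Only genes above a set mean level were changed. The spread drawn between libraries already held that between mice, so the pairing was weaker than in the data. Mice of the same replicate number were given nothing in common. The simulation therefore cannot say whether the block gains or loses recovery in these data.

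The 9 genes, the other lists and the markers were chosen with earlier results of these data known. Named genes are Ptprk, the 9 genes, the 10 largest called changes of the pathway lists and the 2 genes most like each of the 9. Marker lists of hepatocytes, Kupffer, stellate, sinusoidal endothelial and bile duct cells, lymphocytes, lobule position and nuclear-retained RNAs were used. Of the bile duct and the lymphocyte markers 2 each were tested and none was called without the block. Of 3 nuclear-retained RNAs tested none was called. Coordinates are those of GRCm38 (GENCODE M21), matched by gene identifier, and none was converted. Whether the libraries of a group were prepared together is not given, so p-values measure only the spread among these libraries and mice. In the fits of libraries with neither block nor correlation, both libraries of a mouse counted as separate. The fraction fits with the mouse as a block and the sign-change tests measure how the difference within a mouse varied from mouse to mouse. The genotype comparison over mice without a block measures the spread between mouse means.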

Additional observations from a re-analysis of the deposited data

Results flagged for a closer look

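In mouse KO2 the log2 difference of Igfbp3 between the high-fat and the low-fat library was 4.68, far above those of the other 5 mice, which lay between 1.24 and 2.43. Its low-fat value was 2, which is 2 reads, so this difference depends on the 2 added before taking logs. About 1 group in 20 is set apart in this way by chance.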

How the results depend on the processing

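Of 63 log2 fold changes of the 9 genes over 7 comparisons, 38 kept their direction under every alternative run and 25 reversed in at least 1, of which 22 did so only where a library or mouse was left out. None of the 25 was called without the block. Igfbp3 rose between fractions, averaged over genotypes, under each alternative run. The cause of the changes below was not tested. Depth limits Igfbp3 most among the 9 genes, with 2 reads in its lowest library.

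Between fractions, averaged, 956 genes were called. The count was 310 under a filter of 100 in 3 libraries and 1992 with a correlation between libraries of a mouse. It was 602 to 1101 without 1 library and 1819 with the mouse as a block. The block called 4 of the 9 genes and the correlation 1, as did the fit without either, and with the block the deposited scaling gave 1521 and 3 and median-of-ratios scaling 1646 and 4. These 2 combinations, and the block without each mouse in turn, were added after seeing the data. Without a WT mouse the block gave 551, 651 and 1004 genes with 1, 2 and 2 of the 9 among them, and without a KO mouse 1579, 2662 and 929 with 4, 3 and 2. Of the blocked calls 61.5% were higher in high-fat cells, against 77.5% with the deposited scaling. In KO, 139 genes were called, with 282 under the block, 544 with the correlation, 0 under the filter of 100, 0 in a fit of only the libraries compared (615 and 1384 at an unadjusted p under 0.05), and 0 to 37 without 1 library. A pseudocount of 10, the block and the correlation each called 1 of the 9 genes in KO, Igfbp3. In WT, a pseudocount of 10 called 1 gene and the correlation 409. For KO against WT the call of Ptprk was lost, leaving 0, in high-fat libraries alone, without 1 high-fat library (0 to 1), over mice with the replicate block, and without 1 mouse (0).

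Neither the mouse as a block between fractions nor the replicate number as a block between genotypes changed any other call of the 9 genes.

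Without a filter the KO against WT value of Igf1 was 0.0065 in high-fat libraries and 0.010 over mice. The interaction of Igfbp2 was 0.00036 under median-of-ratios scaling and 0.0041 without a filter.

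For KO against WT with 1 library left out, the log2 fold changes in low-fat libraries ranged from -0.14 to 0.16 for Igf1, from -0.13 to 0.20 for Igfals and from -1.85 to 0.74 for Cish. In high-fat libraries they ranged from -0.073 to 0.054 for Ghr, from -0.20 to 0.19 for Igf1, from -0.10 to 0.46 for Igfals and from -1.48 to 0.75 for Cish. Over mice, with 1 mouse left out, they ranged from -0.17 to 0.17 for Igf1, from -0.11 to 0.32 for Igfals and from -1.66 to 0.74 for Cish. Between fractions, in WT, they ranged from -0.020 to 0.78 for Socs2 and from -1.59 to 0.63 for Cish. In KO they ranged from -0.11 to 0.029 for Ghr, from -0.37 to 0.072 for Igfals, from -0.48 to 0.43 for Socs2 and from -1.80 to 1.0 for Cish. Averaged over genotypes they ranged from -0.055 to 0.42 for Socs2 and from -1.16 to 0.24 for Cish. For the interaction they ranged from -0.20 to 0.19 for Igf1, from -0.14 to 0.42 for Igfals, from -0.10 to 0.061 for Igfbp2, from -0.029 to 0.13 for Igfbp4, from -0.90 to 0.0063 for Socs2, from -1.29 to 1.5 for Cish and from -0.18 to 0.019 for Stat5b.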
